A study of Homo sapiens with 9 samples.

Results

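The CDKN2A locus and the retinoblastoma (RB) checkpoint were followed through 10 genes, CDKN2A, CDKN2B, MTAP, CDKN2C, RB1, RBL1, CDK4, CDK6, CCND1 and E2F1, out of 26625 genes with read counts. The genes were listed by name, 9 for their place in the checkpoint and MTAP as the neighbour of CDKN2A, with no threshold on their values, and each was read from the deposited RefSeq row with the most reads. Total RNA of 2 human cell lines had been reverse transcribed with oligo(dT) primers and sequenced by a ligation-based protocol named CLT-seq. HEK293T is an embryonic kidney line that carries adenovirus E1A and E1B and SV40 large T antigen, and A549 is a lung carcinoma line. The labels give the genotype WT for both lines, DMEM high glucose for HEK293T, F-12K for A549 and fetal bovine serum for both. The series holds 9 libraries, and the 7 with gene counts are described here: 1 for each of 6 primers in HEK293T and 1 for A549 with T12. The second biological replicate of HEK293T T12 and the first of A549 T12 were not analysed here. Of the primers, T12, T18 and T30 end in a plain run of 12, 18 or 30 T (unanchored), and T18V, T18VN and T18VNN carry 18 T followed by 1 to 3 further bases (anchored). Each group as compared here is therefore a single library of 1 established line, the level of large T antigen was not analysed here, and the protocol text gives 400 ng of total RNA in one place and 500 ng in another.

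The checkpoint decides whether a cell copies its DNA. D-type cyclins such as CCND1 activate the kinases CDK4 and CDK6, which phosphorylate RB1 and its relative RBL1 (p107) and so release the E2F factors that switch on the genes of S phase. The INK4 proteins (p16 from CDKN2A, p15 from CDKN2B, p18 from CDKN2C) hold CDK4 and CDK6 in check, and a second product of CDKN2A, ARF, protects p53 from MDM2. MTAP, a metabolic neighbour of CDKN2A, is often lost with it in tumours. As background, A549 is known for a deletion of the CDKN2A locus, and large T antigen binds RB1 and its relatives and p53 in HEK293T.

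The promoter sequences below show 2 RefSeq starts of CDKN2A, whose products the read counts cannot tell apart, and the E2F motifs of the members that hold any. They are the 100 bases before the RefSeq start (GRCh38.p14), 5′ to 3′, all on the minus strand, with motif matches in capitals. The CDKN2A stretches lie at chr9:21995325-21995424, before the upstream start (labelled ARF-type), and chr9:21974858-21974957, before the downstream start (labelled p16-type). These labels follow position only. The counted CDKN2A row starts at chr9:21994490 (hg19), another site than the ARF-type start shown, so that stretch is not directly upstream of it. The stretches of E2F1 and RBL1 lie at chr20:33686386-33686485 and chr20:37095998-37096097.
CDKN2A, ARF-type start: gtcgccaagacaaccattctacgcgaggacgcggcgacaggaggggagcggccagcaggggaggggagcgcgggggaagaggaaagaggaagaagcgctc
CDKN2A, p16-type start: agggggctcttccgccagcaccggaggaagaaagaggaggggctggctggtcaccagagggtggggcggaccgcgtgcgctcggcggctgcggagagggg
E2F1: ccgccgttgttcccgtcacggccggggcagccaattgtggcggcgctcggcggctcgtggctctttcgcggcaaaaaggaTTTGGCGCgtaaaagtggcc
RBL1: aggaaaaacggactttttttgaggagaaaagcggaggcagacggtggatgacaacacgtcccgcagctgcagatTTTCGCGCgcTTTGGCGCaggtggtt

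The letters searched were TTTCGCGC and TTTGGCGC on both strands of RefSeq windows of 300 bases, 250 before and 50 after the start. RefSeq windows were matched for 9 of the 10 members, and 2 of the 9, E2F1 and RBL1, held a match. The E2F1 match began 20 bases before the start, and the RBL1 window held 2 matches, 26 and 16 bases before it. Of all 35116 windows, 403 (1.15%) held a match and 13 (0.0370%) held 2 or more. Among 22 genes known as E2F targets in S phase, 18 had a window and 7 of these (38.9%) held a match, beside 1.40% of all 27305 genes with a window. A match is a description of letters, not a binding site.

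Library totals ran from 7491993 to 25578543 reads, of which 1498224 (A549) to 5200705 (HEK293T T18) fell on genes, a share of 13.5% in A549, 11.7% to 20.3% with the unanchored and 27.7% to 37.5% with the anchored primers in HEK293T. Levels are given in CPM, read counts scaled to a common total of reads on genes. A level of 3 reads, taken as the detection floor, was 2.00 CPM for A549 and 0.919 CPM for HEK293T with T12. Intervals are 95% and cover counting error only, since PCR copies of a molecule were counted without molecular identifiers. Marker lists of the 2 lines were also read. They were chosen with earlier results of these data known, so they are no check of the line labels. All 8 A549 markers were higher in A549, with a summed level of 16659 CPM against 14.4 CPM in HEK293T T12 (8.48 to 26.9 over the 6 HEK293T libraries). Of 6 HEK293T markers, 5 were lower in A549 and MAP1B was higher (summed level 230 CPM against 4748 CPM). MAP1B, at 228 CPM in A549, was inside its HEK293T range of 40.1 to 501 CPM. The defining markers of the tissues were near absent: all 6 lung alveolar genes had 0 reads in A549, and of 7 kidney epithelial genes only PAX2 had reads in HEK293T T12 (43). Against their names, the lung gene NKX2-1 had 20 reads in HEK293T T12, and the kidney genes NPHS1, PAX2 and PAX8 had 12, 6 and 4 reads in A549, a summed 14.7 CPM beside 13.2 CPM in HEK293T T12.

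The first comparison asked how the 2 lines differ with the same primer. Genes that reached 20 reads in either T12 library were compared on log2(CPM + 1), a scale that understates the change of low genes, and called at 2-fold. With 1 library per line the difference has no replicate check. Of the 10 members, 9 reached 20 reads and 6 of them differed by at least 2-fold, 5 lower in A549 (CDKN2A, MTAP, RBL1, CDK4 and E2F1) and 1 higher (RB1), while CDKN2C, CDK6 and CCND1 differed by less. Over all 10145 genes compared, 60.2% passed 2-fold, 29.2% lower and 31.0% higher, so the share of members called was near the background and the split was toward lower. Set against all 6 HEK293T libraries, A549 lay outside their range for 5 of the 9, 4 below (CDKN2A, MTAP, RBL1 and CDK4) and 1 above (RB1), beside 62.5% of all genes compared. On the authors' FPM scale, which divides by the library total instead of the reads on genes, A549 was below all 6 for CDKN2A, CDKN2B, MTAP, RBL1, CDK4 and E2F1 and above them for 0 members. The share of all genes outside the range on FPM was not analysed, so these counts cannot be read as particular to the members. The median of all genes compared was itself -0.26 on log2(FPM + 1), and CDKN2B was too scarce for a difference to be read. On log2(CPM + 1), the median difference was -1.62 over the 9 members and 0.02 over all genes compared. In bulk RNA, fewer cells with a transcript and less of it per cell cannot be told apart.

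**Figure D1:**
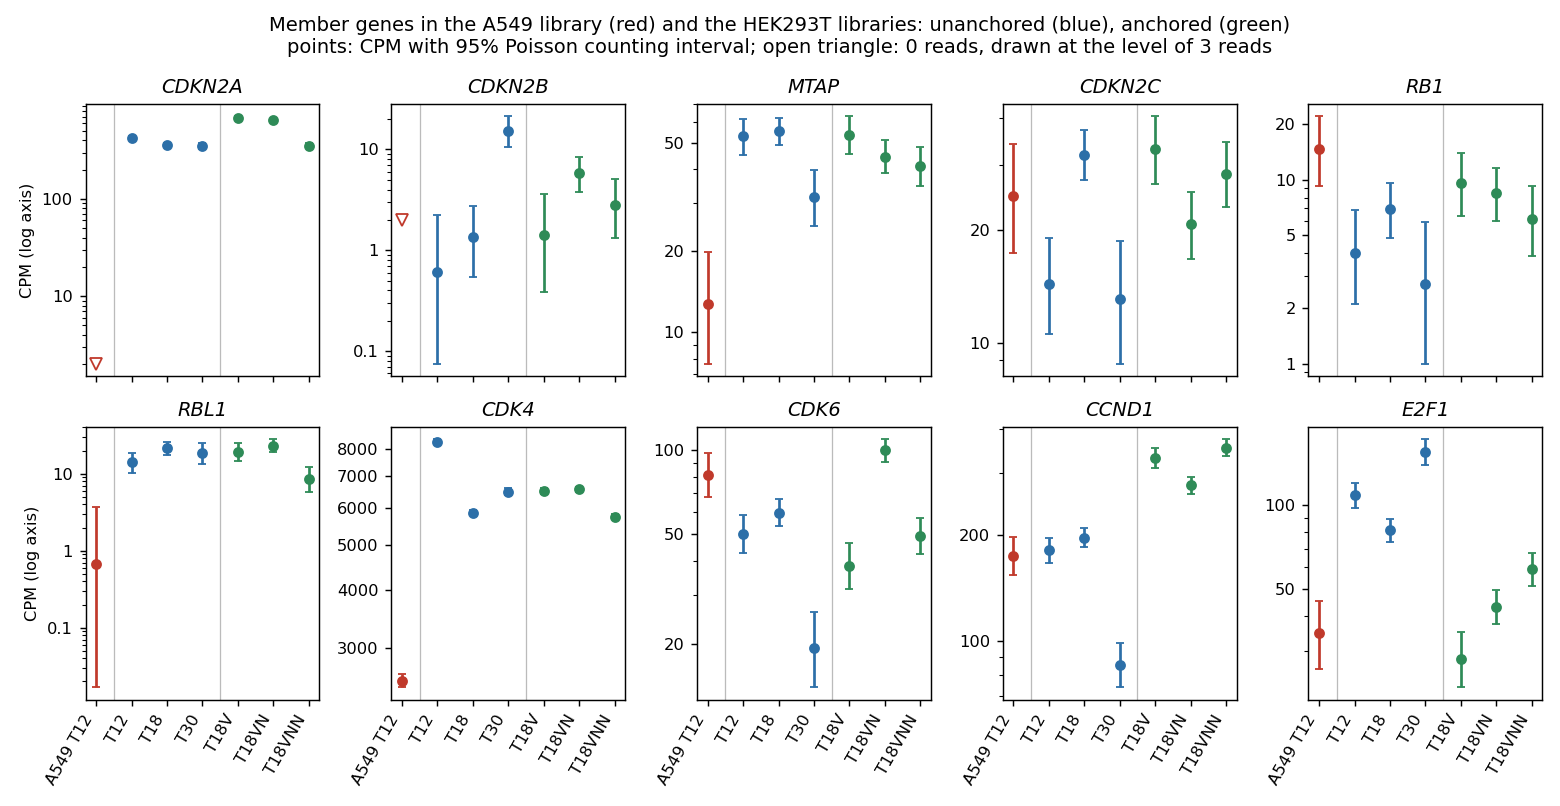
Level of each member gene (CPM, log axis, a separate scale per gene) in the A549 T12 library (red), the unanchored HEK293T libraries (blue) and the anchored HEK293T libraries (green), with 95% Poisson counting intervals; an open triangle marks 0 reads, drawn at the level of 3 reads. A549 lies below all HEK293T points for CDKN2A, MTAP, RBL1 and CDK4 and above them for RB1, while E2F1 and CCND1 separate the blue from the green points.

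CDKN2A, which encodes p16 and ARF, was the member with the widest difference. HEK293T held 1386, 1857 and 779 reads with T12, T18 and T30 and 1914, 2884 and 1275 with the anchored T18V, T18VN and T18VNN, and A549 held 0. In CPM the HEK293T libraries ranged from 352 through a median of 391 to 681. Every HEK293T library was thus far above the A549 floor. With T12 the HEK293T level was 212-fold above the floor of 3 reads in A549. The 95% interval of the ratio, for counting error, began at 172-fold. Of the 405 genes with at least as many reads as CDKN2A in HEK293T T12, CDKN2A included, 4 (0.988%) had 0 reads in A549. Of the same 405, 6 had at most 3. The 4 deposited CDKN2A rows, which cover the p16-type and ARF-type transcripts, held equal counts in every library but T18 (1857 or 1856 reads), so the 2 products cannot be told apart here. The counted row spans chr9:21967751-21994490 (hg19, minus strand).

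CDKN2B, which encodes p15 and lies beside CDKN2A at chr9:22002902-22009312 (minus strand), was scarce in both lines. A549 held 0 reads, and HEK293T held 2, 7 and 34 reads with T12, T18 and T30 and 4, 26 and 10 with the anchored T18V, T18VN and T18VNN. Its level in HEK293T ran from 0.612 CPM through a median of 2.10 to 15.3 CPM. Only 3 of the 6 HEK293T libraries exceeded the level of 3 reads in A549, and with T12 both lines were at or under the floor, so a difference was not detectable at this depth. A CDKN2B transcript of 859 bases shares 66 of its 830 stretches of 30 bases (7.95%) with CDKN2A. The counted row is longer, at 3984 bases, so this share does not cover all of it. CDKN2B also lies inside the span of the antisense gene CDKN2B-AS1. That antisense RNA had 9 reads in HEK293T T12 and 0 in A549. A use of strand in the counting is not stated, so sense and antisense reads cannot be told apart where exons overlap. The 859-base CDKN2B transcript shares 0 exon bases with CDKN2B-AS1 in the annotation. The rest of the counted row was not compared.

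MTAP, the methylthioadenosine phosphorylase of methionine salvage (chr9:21802635-21865970, plus strand), was the gene nearest to CDKN2A with reads in both lines. It had 19 reads in A549 beside 173 in HEK293T T12, and the other HEK293T libraries held 288 and 70 (T18 and T30) and 151, 200 and 148 (T18V, T18VN and T18VNN). In CPM, A549 was at 12.7 and HEK293T ranged from 31.6 through a median of 48.8 to 55.4, so A549 was below all 6 HEK293T libraries. The fold with T12 was 4.18 (95% interval 2.60 to 7.11), and A549 was 2.49-fold below the lowest HEK293T library. Of the MTAP transcript's 4880 stretches of 30 bases, 727 (14.9%) occur in other genes, among them AL359922.1 (421) and the pseudogene MTAPP2 (127). Where in the gene the 19 reads lie was not analysed here.

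The surroundings were read from every gene whose lower-coordinate end lay within 5 Mb of the CDKN2A start. Distances are counted from that end on either strand. Of 57 genes, 26 had 0 reads in all 7 libraries, and 17 had at least 20 reads in a T12 library. Among the 17, 6 were lower and 6 higher in A549 by 2-fold, and 2 had 0 reads there, CDKN2A and ELAVL2. ELAVL2, a neuronal RNA-binding protein gene 1696 kb beyond CDKN2A, had 72 reads in HEK293T T12. On the side of MTAP, MIR31HG, the host transcript of MIR31, was read 39 times in A549 and not at all with T12 in HEK293T. Its far end lies 540.2 kb from CDKN2A. KLHL9, a ubiquitin ligase adaptor, had 173 and 106 reads (3.56-fold higher in A549). Farther out on that side, PLIN2 (3.57-fold) and DENND4C (2.77-fold) were higher in A549, while FOCAD (2.67-fold) and MLLT3 (2.54-fold) were lower. RRAGA, HAUS6, RPS6 and CNTLN differed by less than 2-fold there.

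By lower-coordinate end, 7 genes lay within 500 kb of CDKN2A. MIR31HG, counted outside, spans chr9:21454267-21559697 around MIR31, so it reaches into this stretch with its reads in A549. CDKN2A, CDKN2A-AS1, CDKN2B-AS1, CDKN2B and MIR31 had 0 reads in A549, and MIR31 had 0 in HEK293T as well. CDKN2A-AS1 was itself low in HEK293T, with 44 reads (T18V), 45 (T18VNN) and at most 2 in each of the others. DMRTA1, on the far side, had 2 reads in A549 against 0, under the floor in both. Beyond it, TUSC1 (7.99-fold) and IFT74 (4.26-fold) were higher in A549 and CAAP1 (3.21-fold) was lower, while PLAA differed by less than 2-fold. CAAP1, at 3.34 CPM in A549, was inside its HEK293T range of 1.12 to 10.7 CPM. LINC01239, a noncoding gene 652 kb beyond CDKN2A that was picked with its counts already known, had 19 reads in A549 and 0 in every HEK293T library. LRRC19, inside the IFT74 span on the other strand, had 6 reads against 0. Reads above the floor in A549 were found on both sides of CDKN2A and CDKN2B, at MTAP and at LINC01239. The 4 genes between MTAP and DMRTA1 had 0, but only CDKN2A, with 1386 reads in HEK293T T12, had enough reads for the comparison. With 1, 9 and 2 reads there, CDKN2A-AS1, CDKN2B-AS1 and CDKN2B were too scarce for their 0 in A549 to be read as a difference.

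**Figure D2:**
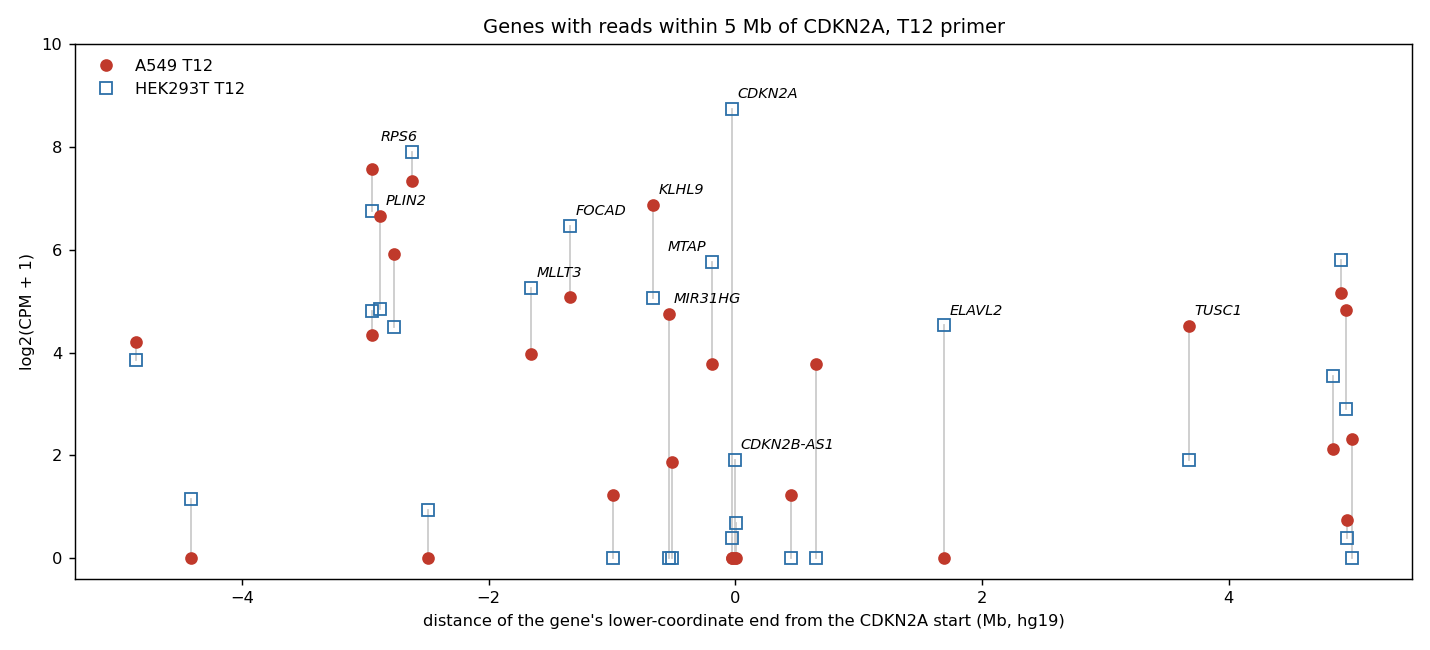
Level in log2(CPM + 1) with the T12 primer in A549 (red circles) and HEK293T (blue squares) for genes with reads within 5 Mb of CDKN2A, by distance of the gene's lower-coordinate end from the CDKN2A start in Mb; a grey line joins the values of 1 gene. The difference, A549 minus HEK293T, is -8.73 for CDKN2A and -1.98 for MTAP, while the circle lies above the square for KLHL9 (by 1.80) and MIR31HG (by 4.76).

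CDKN2C (chr1:51434367-51440306, plus strand), the INK4 gene for p18, had 37 reads in A549 beside 47 in HEK293T T12. The other HEK293T libraries held 166 reads with T18, 29 with T30 and 93, 93 and 102 with T18V, T18VN and T18VNN. A549 stood at 24.7 CPM inside the HEK293T range of 13.1 to 33.1 CPM (median 24.6), 1.72-fold above T12 (95% interval 1.08 to 2.70). The 7 INK4 and CIP/KIP inhibitors gave 5 genes with at least 20 reads, of which 2 were higher, 1 lower (CDKN2A) and 2 under 2-fold. All genes compared gave 31.0% higher and 29.2% lower. The 2 higher inhibitors were of the CIP/KIP class, which inhibits CDK2: CDKN1A (p21), at 617 CPM against 111 CPM, and CDKN1B (p27), at 64.1 CPM against 19.9 CPM. Both were above all 6 HEK293T libraries.

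CDK4 (chr12:58141510-58146230, minus strand), the main kinase partner of D-type cyclins, was deeply covered. A549 held 3829 reads and HEK293T held 27151, 30451 and 14388 with T12, T18 and T30 and 18276, 29429 and 20641 with the anchored T18V, T18VN and T18VNN. In CPM, A549 was at 2556 and HEK293T ran from 5739 through a median of 6497 to 8314, without overlap. The fold with T12 was 3.25 (3.14 to 3.37), where T12 was the highest HEK293T library; against the lowest it was 2.25. TSPAN31, a tetraspanin gene on the opposite strand, overlaps the CDK4 span by 517 bp. With both strands counted, it shares 993 of the 2047 CDK4 stretches of 30 bases (48.5%). Its RefSeq transcripts share fewer of the CDK4 exon bases, 506 of 2076. TSPAN31 itself held 201 reads in HEK293T T12 and 129 in A549, far fewer than CDK4.

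CDK6 (chr7:92234235-92465941, minus strand), the second kinase of the pair, had 122 reads in A549 beside 163 in HEK293T T12. HEK293T ranged from 19.4 CPM (T30) through a median of 49.6 to 99.8 CPM (T18VN), with T12 at 49.9, T18 at 59.6, T18V at 38.4 and T18VNN at 49.2 CPM. A549, at 81.4 CPM, was inside that range and 1.63-fold above T12 (1.28 to 2.08). The ratio of CDK4 to CDK6 per transcript length, in FPKM, was 184 in A549 and 385 to 1958 over the HEK293T libraries, so the 2 lines did not overlap in this ratio.

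CCND1 (chr11:69455873-69469242, plus strand), cyclin D1, had 261 reads in A549 beside 591 in HEK293T T12. In HEK293T it was at 181, 197 and 85.7 CPM with T12, T18 and T30 and at 331, 277 and 354 CPM with T18V, T18VN and T18VNN. A549, at 174 CPM, lay inside this range, and its ratio to T12 was 0.963 (0.829 to 1.12). CCND2, cyclin D2, differed: A549 had 0 reads of it against 89. Among the 9 G1 cyclins and kinases, 8 had at least 20 reads, 0 were 2-fold higher and 4 were 2-fold lower in A549, with a median log2 difference of -0.88. Of all genes compared, 31.0% were higher and 29.2% lower. CDC25A, a phosphatase that activates cyclin-dependent kinases, was at 4.005 CPM against 234 CPM, and CCNE1, cyclin E1, at 12.01 CPM against 10.4 CPM.

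RB1 (chr13:48877883-49056026, plus strand) encodes the brake itself and was the only member called higher in A549. It had 22 reads there and 13 in HEK293T T12, and the other HEK293T libraries held 36 and 6 (T18 and T30) and 27, 38 and 22 (T18V, T18VN and T18VNN). A549 was at 14.7 CPM and HEK293T at 2.71 (T30) through a median of 6.52 to 9.61 CPM (T18V), so A549 lay above all 6 libraries. The fold was 3.69 with T12 (1.78 to 7.97) and 1.53 against the highest HEK293T library. On the FPM scale A549, at 1.98 FPM, lay inside the HEK293T range of 0.316 to 3.60 FPM. Its ratio to T12 was 2.88 there, and log2(FPM + 1) differed by 0.82, under 2-fold, since the added 1 weighs more on low values. LPAR6, a receptor gene on the opposite strand inside the RB1 span, had 59 reads in A549 and 0 in all HEK293T libraries. It shares 0 exon bases with RB1 in the annotation, and its part in the RB1 count was not tested.

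RBL1 (chr20:35624752-35724618, minus strand), the relative p107, went the other way. It had 1 read in A549 and 46 in HEK293T T12, and the other HEK293T libraries held 111 and 41 (T18 and T30) and 54, 104 and 31 (T18V, T18VN and T18VNN). HEK293T ranged from 8.62 CPM through a median of 18.9 to 23.2 CPM and A549 was at 0.667 CPM, below its own floor. The T12 ratio was 21.1 with a wide interval (3.60 to 851), since it rests on 1 read. Of the 4 deposited RBL1 rows 3 held equal counts, and the row of a shorter transcript had 0 reads in both T12 libraries, so the call ends if that row is used. Per transcript length, RBL1 stood at 1.11 to 5.40 times RB1 in HEK293T and 0.0359 times RB1 in A549, so the order of these genes was opposite in the 2 lines, the A549 value again resting on 1 read. RBL2 (p130), the remaining pocket protein gene, was at 8.68 CPM against 7.35 CPM.

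E2F1 (chr20:32263292-32274210, minus strand), the factor that RB1 holds back, had 52 reads in A549 beside 355 in HEK293T T12, a 3.13-fold lower level in A549 (2.34 to 4.28). In HEK293T it was at 109, 81.5 and 156 CPM with T12, T18 and T30 and at 28.1, 43.3 and 58.9 CPM with T18V, T18VN and T18VNN. A549, at 34.7 CPM, was therefore inside the HEK293T range, above T18V. On the FPM scale it was at 4.67, below all 6 HEK293T libraries (10.5 to 18.8 FPM). Against the HEK293T median (70.2 CPM) the log2 difference was -0.996, just under 2-fold, so on CPM the call depended on the reference. Of the 10 E2F and DP factor genes, 8 had at least 20 reads, 1 was higher, 3 were lower and 4 differed by less. Beside them, 31.0% of all genes compared were higher and 29.2% lower. TFDP1, a dimer partner of the E2F factors, was at 26.0 CPM against 9.19 CPM, TFDP2 at 40.0 against 19.6 CPM, and E2F2 at 2.67 against 15.0 CPM.

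The S-phase genes that E2F factors are known to drive were mostly lower in A549. All 22 had at least 20 reads: 16 were lower, 1 higher and 5 under 2-fold, with a median log2 difference of -2.37 beside 0.02 over all genes compared. A549 lay below all 6 HEK293T libraries for 20 of the 22, where 28.8% of all genes compared did. With TMM, library totals or the HEK293T median as reference, 16 to 19 were lower and 0 or 1 higher. Their summed level was 461 CPM in A549 and 3185 to 7542 CPM in HEK293T. CDC45, a helicase subunit of the replication fork, had 0 reads against 271. PCNA, the sliding clamp, was the 1 gene higher with T12, at 33.4 CPM against 6.43 CPM, yet inside the HEK293T range, which reached 47.0 CPM. TK1, thymidine kinase, was at 34.7 CPM against 30.3 CPM.

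The MuvB core, which joins RBL1 or RBL2 in the DREAM complex, and the mitotic genes that DREAM is known to silence were mixed. Of 15, 8 were lower, 2 higher and 5 under 2-fold in A549, with a median of -1.07. Among all genes compared, 29.2% were lower and 31.0% higher. A549 lay below all 6 HEK293T libraries for 8 of the 15 and above them for 1, beside 28.8% and 33.8% of all genes compared. CDC20, an activator of the anaphase-promoting complex, was at 28.0 CPM against 437 CPM, and LIN9, a MuvB subunit, had 0 reads against 36. LIN37, another MuvB subunit, was at 14.0 CPM against 0.306 CPM (1 read), where HEK293T reached 6.12 CPM. TOP2A, topoisomerase II alpha, was at 30.0 CPM against 14.1 CPM, its lowest HEK293T level, and inside a HEK293T range that reached 203 CPM.

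The ARF-MDM2-p53 arm showed the opposite split. Of 13 genes, 12 had at least 20 reads, 7 were higher, 1 lower and 4 under 2-fold in A549, with a median log2 difference of 1.80, and 7 lay above all 6 HEK293T libraries, where 33.8% of all genes compared did. With the other scalings and references 6 or 7 were higher. RRM2B, a p53-induced ribonucleotide reductase subunit, was at 34.7 CPM against 0.306 CPM (1 read), where HEK293T reached 11.1 CPM. BBC3 (PUMA), a p53-induced death gene, was at 151 CPM against 18.4 CPM, inside a HEK293T range that reached 282 CPM. AEN, a nuclease gene, was at 38.05 CPM against 105 CPM, and SESN1, a stress-induced gene, at 4.67 CPM against 7.96 CPM. CDKN1A, named above, is also in this list.

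Methionine salvage and PRMT5 genes, which act beside or downstream of MTAP, gave 11 genes with at least 20 reads, of which 6 were lower, 1 higher and 4 under 2-fold, with a median of -1.28. The shares among all genes compared were 29.2% lower and 31.0% higher. WDR77, the partner of the arginine methyltransferase PRMT5, was at 20.0 CPM against 420.1 CPM, and RIOK1, a PRMT5 adaptor, at 1.33 CPM against 88.2 CPM. ENOPH1, a salvage enzyme, was at 15.4 CPM against 2.45 CPM.

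**Figure D3:**
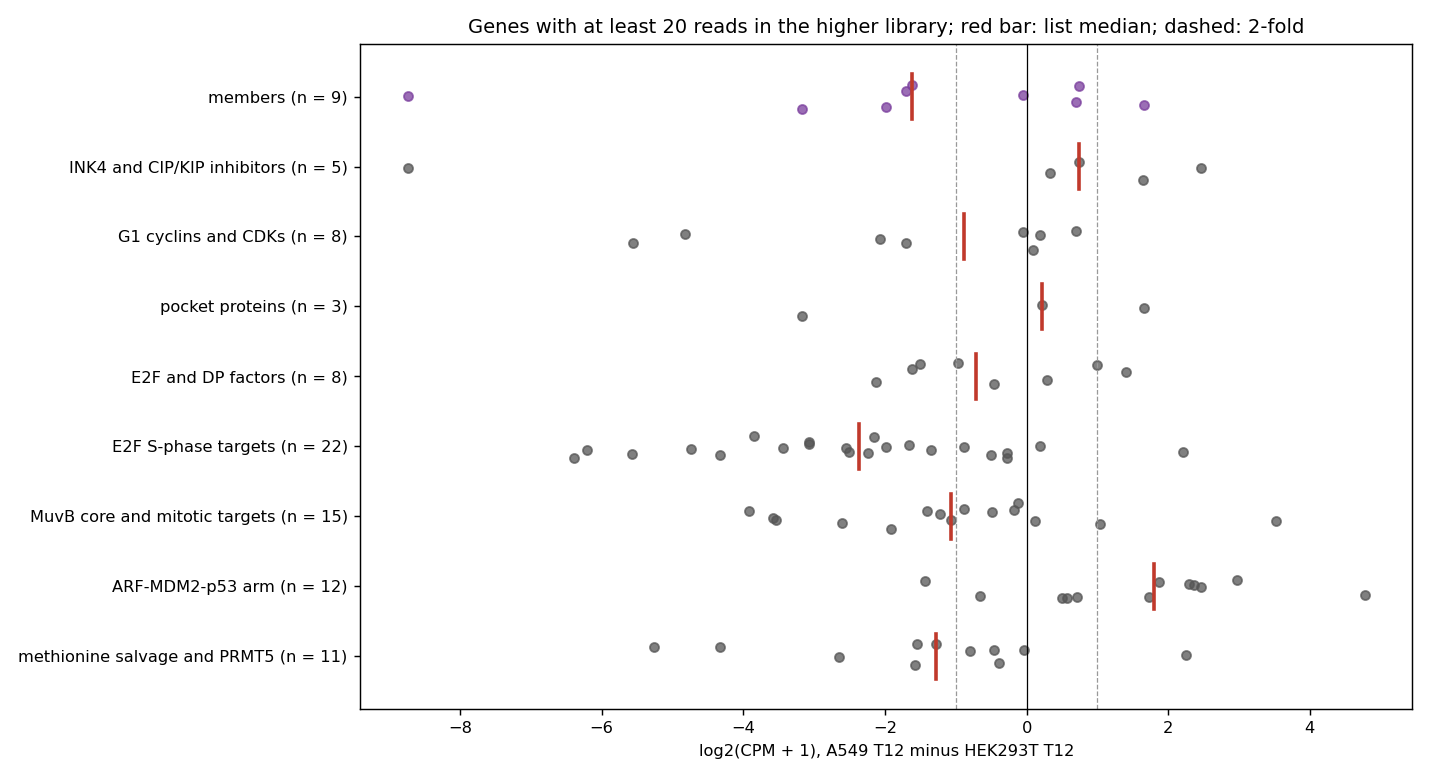
Difference between A549 and HEK293T T12 in log2(CPM + 1) for the genes of each list with at least 20 reads in a T12 library; each point is a gene, the red bar the list's median and the dashed lines 2-fold. The E2F S-phase targets center at -2.37 and the ARF-MDM2-p53 genes at 1.80, while the median of all genes compared is 0.02.

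The second comparison asked how far a member's level moves with the primer in HEK293T alone. In CPM, the highest library stood above the lowest by 1.45-fold for CDK4 (1.42 to 1.48), 1.75-fold for MTAP (1.35 to 2.31) and 1.94-fold for CDKN2A (1.78 to 2.11). The range was 2.53-fold for CDKN2C, 2.69-fold for RBL1, 3.55-fold for RB1 and 4.13-fold for CCND1. CDK6 (5.14-fold), E2F1 (5.54-fold) and CDKN2B (25.1-fold, 6.42 to 215, from 2 and 34 reads) had the widest ranges in CPM. Over 2-fold ranges were thus seen for 7 of the 10 members, with a median range of 3.12-fold. The share of all genes over 2-fold in CPM was not analysed, so the 7 of 10 cannot be read as particular to the members. On the log2(CPM + 1) scale the members' median range was 1.42, beside 1.83 over 11764 genes with at least 20 reads in a HEK293T library (quartiles 1.27 to 2.57). On it, the range was wider than that of CDK4 for 98.1% of these genes, than that of MTAP for 92.9% and than that of CDKN2A for 87.5%.

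The scaling changed this order. On FPM, 9 of 10 members ranged over 2-fold, and E2F1 had the narrowest range (1.78-fold). FPM also moves with the share of reads on genes, which ran from 11.7% (T30) to 37.5% (T18V). The share of all genes over 2-fold on FPM was not analysed, so the 9 of 10 cannot be read as particular to the members. CDK4 then ranged 3.22-fold, RBL1 3.34-fold, MTAP 5.46-fold, CDKN2A 6.22-fold and CDKN2C 8.12-fold. RB1 ranged 11.4-fold, CDK6 and CCND1 12.4-fold each and CDKN2B 17.0-fold. Single libraries also carried some of the CPM ranges. Without T30 they were 1.96-fold for CCND1, 2.60-fold for CDK6 and 9.47-fold for CDKN2B. The range was 11.4-fold for CDKN2B without T12, 3.07-fold for CDK6 without T18VN, 3.60-fold for E2F1 without T18V and 1.65-fold for RBL1 without T18VNN.

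No single primer set the CPM extremes of all members. T30 gave the lowest level of CDKN2A, MTAP, CDKN2C, RB1, CDK6 and CCND1 and the highest of CDKN2B and E2F1. T18V gave the highest level of CDKN2A, CDKN2C and RB1 and the lowest of E2F1. T12, the primer shared with A549, gave the highest CDK4 and the lowest CDKN2B level. In CPM, the T12 folds between the lines for CDKN2A, MTAP and RBL1 were wider than the primer ranges of the same genes, and that of CDK4 was as well (3.25 beside 1.45). For RB1 (3.69 beside 3.55) the widths were close, and for CDKN2C, CDK6, CCND1 and E2F1 the primer range was the wider. On FPM the E2F1 fold between the lines (4.02) was wider than its primer range (1.78), while that of MTAP (5.36) was close to its range (5.46) and that of RB1 (2.88) was narrower than its range (11.4).

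The third comparison set the 3 anchored against the 3 unanchored HEK293T primers. Each primer stood in for a replicate, so the p-values measure the spread between primers, which may be technical, and not between cultures. E2F1 was lower with the anchored primers, at 43.4 ± 15.4 CPM (SD, n = 3) beside 115 ± 37.5 CPM (SD, n = 3), and the 2 classes did not overlap. CCND1 was higher with them, at 321 ± 39.6 CPM beside 154 ± 59.97 CPM, again without overlap. Separation of the classes was seen for these 2 of the 10 members, beside 23.6% of all 10887 genes tested. By edgeR's quasi-likelihood test with Benjamini-Hochberg adjustment, 0 of the 9 members in the fit passed an adjusted p of 0.05, beside 1.35% of all genes tested. At an unadjusted p under 0.05, 2 of 9 passed, E2F1 and CCND1, beside 15.6% of all genes. DESeq2 called 1 member, E2F1.

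For E2F1, edgeR put the log2 fold change at -1.58 with an SE of 0.39 (adjusted p = 0.0725), and DESeq2 gave -1.63 with an adjusted p of 0.00417. Over the 12 fits run, edgeR and DESeq2 gave adjusted p values between 0.00417 and 0.442, with 2 under 0.05. The anchored libraries held a larger share of their reads on genes, and E2F1 scaled to the library total was at 18.8, 16.6 and 18.2 FPM with T12, T18 and T30 and at 10.5, 12.2 and 16.4 FPM with T18V, T18VN and T18VNN. On that scale the difference was smaller, a log2 fold change of -0.45 (edgeR adjusted p = 0.442). CCND1 gave a value of 0.89 (SE 0.34, edgeR adjusted p = 0.239) on reads on genes and 1.88 (edgeR adjusted p = 0.0160) on library totals. CDKN2A, at 378 ± 40.6 CPM (SD, n = 3) with unanchored and 560 ± 179 CPM (SD, n = 3) with anchored primers, gave 0.40 (SE 0.31, edgeR adjusted p = 0.603) on reads on genes and 1.52 (edgeR adjusted p = 0.0288) on library totals. Library totals moved the median of all genes between the classes from near 0 to 1.07 on the log2 scale, so these 2 values are to be set against that shift.

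The other 6 members in the fit had log2 fold changes between -0.30 (CDK4) and 0.64 (RB1) with edgeR adjusted p values from 0.617 to 0.869. MTAP stood at 46.6 ± 13.1 CPM (SD, n = 3) unanchored and 46.5 ± 6.49 CPM (SD, n = 3) anchored. CDKN2B did not pass the filter on low counts. Of the wider lists, E2F2 was higher with anchored primers (log2 fold change 2.22, edgeR adjusted p = 0.0126). POLA1, a DNA polymerase subunit, was also higher (1.48, edgeR adjusted p = 0.0428), and MYBL2, an S-phase regulator, was lower (-2.13, edgeR adjusted p = 0.0265). These were the 3 calls among the 8 pathway lists.

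**Figure D4:**
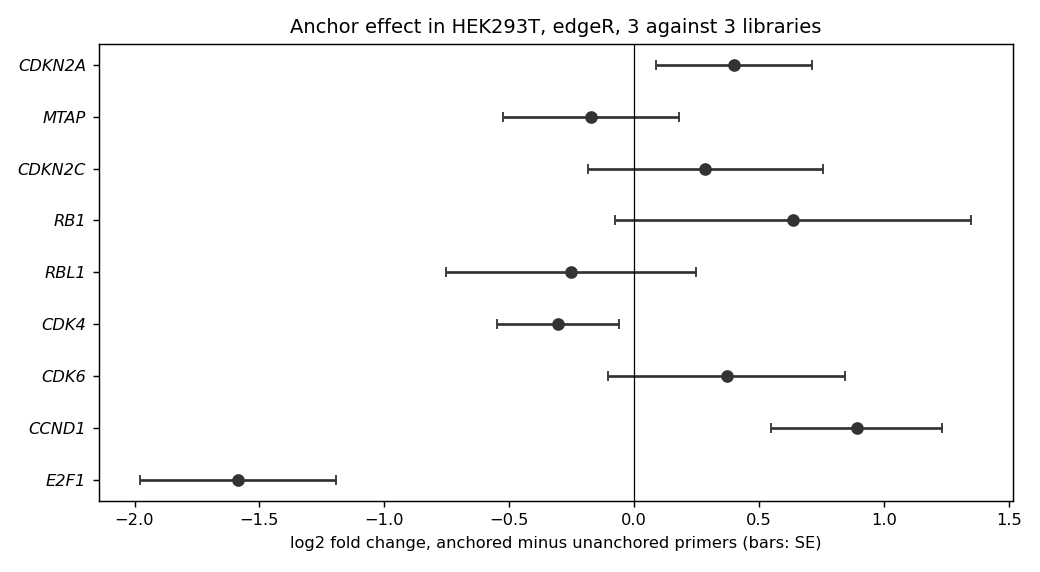
Log2 fold change of each member between anchored and unanchored primers in HEK293T (edgeR, points with bars of 1 SE; 3 primers per class). E2F1 at -1.58 and CCND1 at 0.89 lie farthest from 0, and no member passed an adjusted p of 0.05.

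Per transcript length, in FPKM, the members kept nearly the same order in the HEK293T libraries. CDK4 had a median of 756 FPKM (379 to 1218) and CDKN2A of 74.6 FPKM (35.7 to 222), and each stood above the next gene in 6 of 6 libraries. Below them came CCND1 (13.7), E2F1 (6.10), CDKN2C (2.95), MTAP (2.30), CDK6 (1.10), RBL1 (0.560), RB1 (0.325) and CDKN2B (0.164). Neighbours in this order changed places in 1 or 2 libraries, except MTAP above CDK6 and RBL1 above RB1, which held in 6 of 6. In A549 CDK4 was again first, at 172 FPKM, followed by CCND1 (5.47), E2F1 (1.73), CDKN2C (1.59), CDK6 (0.936), RB1 (0.414), MTAP (0.347) and RBL1 (0.0149). The places of CDKN2A and MTAP were lower there than in HEK293T. RBL1 stood below RB1 in A549 instead of above it, on 1 read.

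The pattern of CDKN2A over the 7 libraries was most like that of FAM222A (Pearson r 0.998), EDA (0.997) and PSMC5 (0.997) in log2(CPM + 1), among 12324 genes. The points share their library depth, and 6 of the 7 share a line. Within the 6 HEK293T libraries r was lower, at 0.888, 0.875 and 0.747, and 825 genes had r over 0.9 across the 7. In A549 and HEK293T T12, FAM222A had 0 and 60 reads, EDA had 2 and 322, and PSMC5 had 52 and 604.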

How the data were processed

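Reads of CLT-seq libraries had been trimmed and aligned with tools that the submitters' processing notes name without roles: FastQC 0.11.8, cutadapt 2.10, Trimmomatic 0.39, HISAT2 2.2.1 and SAMtools, with GRCh37/hg19. The authors deposited, per RefSeq transcript, a read count, FPM (a signal, the count scaled to the library total) and FPKM (FPM per kilobase), per the file headers. The handling of strand and of reads with several matches is not given in the sources used here, and overlapping transcripts repeat reads. Of 61177 rows, 60133 matched a symbol in the RefSeq gene table and 1044 were left out. For each of 26625 genes the row with the most reads was kept. Of 9 libraries, 7 had gene counts; HEK293T T12 replicate 2 and A549 T12 replicate 1 were not analysed here. Groups came from the sample titles.

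CPM used the reads on genes. The lines were compared as log2(CPM + 1) differences, without a test, where the higher library had at least 20 reads; count intervals are exact Poisson and ratio intervals derive from Clopper-Pearson. The test between primer classes was the quasi-likelihood F-test of edgeR 4.0.16 in R 4.3.3, after filterByExpr and TMM, with Benjamini-Hochberg adjustment at 0.05, checked on simulated counts. DESeq2 1.42.0, RLE size factors, pseudocounts of 0.5 and 5, other filters, row choices and references, and leaving out each library were tried; library totals in place of TMM were added after seeing the data. Named genes were the members, the 2 largest differences in each direction of each list (1 of them is not reported here), neighbours by position and the 3 genes most like CDKN2A; TSPAN31, LPAR6 and the antisense genes were named because they overlap members, and E2F2, POLA1 and MYBL2 because they were the edgeR calls in the lists. Members and lists were chosen with earlier results of these data known. Python 3.11.15 with pandas 2.3.3 was used. Coordinates of genes are hg19 as deposited, and promoter sequences are from RefSeq (GRCh38.p14). Shared stretches of 30 bases were counted in GENCODE release 29 transcripts.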

Additional observations from a re-analysis of the deposited data

Results flagged for a closer look

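In the 6 HEK293T libraries, 2 of the 10 members had 1 library standing apart from the others by Dixon's criterion for a group of 6, where the gap to the nearest library exceeds 0.625 of the range. CDKN2B with T30 was at 15.3 CPM (34 reads), while the other 5 libraries lay between 0.612 and 5.80 CPM. CDK4 with T12 was at 8314 CPM, above the next library at 6568 CPM. Chance flags about 1 in 20 groups, which is 0.5 of 10 here. The T12 library is the one that A549 was compared with, and the CDK4 fold between the lines was 3.25 with it and 2.25 against the lowest HEK293T library.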

How the results depend on the processing

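With 1 library per line, or per primer, no biological spread could be measured, and low counts limit CDKN2B (0 and 2 reads in A549 and HEK293T T12), RBL1 (1 and 46), MTAP (19 and 173) and RB1 (22 and 13). The 5 lower calls in A549 were 4 or 5 under each alternative; E2F1 left them with the HEK293T median as reference and RBL1 with the row of fewest reads. The 1 higher call (RB1) became 0 on the authors' FPM scale, where log2(FPM + 1) weighs the added 1 more by construction, and the median primer range rose from 3.12-fold to 7.17-fold on FPM. Leaving out 1 HEK293T library gave ranges from 2.36-fold (without T30) to 3.12-fold. The median of all genes between the lines was 0.02 on CPM, -0.26 on FPM and -0.23 with TMM.

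For anchored against unanchored primers, members past an adjusted p of 0.05 were 0 in edgeR, 1 without the filter on low counts, 1 with DESeq2 (both E2F1) and 2 with library totals in place of TMM (CCND1 and CDKN2A). Over all genes the count was 147 (85 higher, 62 lower). It was 556 without the filter, 597 with DESeq2 (282 higher, 315 lower) and 2264 with library totals (2212 higher, 52 lower). Leaving out 1 library gave counts from 46 to 111: 46 without T18VNN, 54 without T30, 63 without T18V and 85 without T18; the cause was not tested. These fits left 1 class with 2 libraries. Directions reversed for CDK6 without T18VN (-0.15), RBL1 without T18VNN (0.038) and, with library totals, CDK4 (0.80), MTAP (0.87) and RBL1 (0.84), none of them past 0.05 in either fit by edgeR. No paired analysis was possible because replicate numbers are shared only by the T12 groups of the 2 lines, and gene counts were analysed for 1 replicate of each.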
